A study of Mus musculus with 2 samples.

Results

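The TRIM family was followed in naive CD4 and naive CD8 T cells as the 66 gene symbols, of 23167 in the deposited tables, that begin with Trim and a number. The study sorted both cell types from Foxp3-GFP reporter mice on a C57/BL6 background, taking CD62Lhi CD44lo CD25- cells without Foxp3 reporter signal from spleen and lymph nodes. Each cell type gave 1 library of ribosomal-RNA-depleted total RNA, so none of the differences below has a replicate check and no p-value is given. The reporter allele was shared by both groups, and the labels state neither the age, the sex nor the number of the mice and name no stimulation.

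TRIM proteins carry a RING domain, B-boxes and a coiled coil, and most of them act as ubiquitin ligases in which the RING recruits an E2 enzyme. The part that follows the coiled coil differs between members and chooses the target. A SPRY domain is found in many antiviral members, a PHD finger with a bromodomain in chromatin regulators, and NHL repeats in members that bind RNA or protein partners. Several members are induced by interferon and tune the sensing of viral RNA and DNA, and others act in T cell signalling, transcription and cell division.

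The library totals behind the deposited RPKM (reads scaled by gene length and by library total) came to 24741945 reads in the CD4 library and to 23853921 in the CD8 library. The coreceptor genes followed the sort, with Cd4 at 305 RPKM in CD4 cells against 8.89 RPKM in CD8 cells and Cd8a at 2.50 RPKM in CD4 cells against 518 RPKM in CD8 cells. The 6 general T cell markers summed to 1712 RPKM in CD4 cells and 1719 RPKM in CD8 cells. Of the B cell markers, Ms4a1, Cd79a, Pax5 and Blnk were below 1 RPKM in both libraries, while Cd79b was at 2.14 RPKM in CD4 cells against 28.8 RPKM in CD8 cells. The 7 myeloid markers summed to 12.01 RPKM in CD4 cells and 6.58 RPKM in CD8 cells, with Cd14 listed at 0 in both. The 6 dendritic cell markers summed to 0.460 RPKM in CD4 cells and 1.34 RPKM in CD8 cells, with Siglech listed at 0 in both. The 6 NK cell markers summed to 9.82 RPKM in CD4 cells and 119.5 RPKM in CD8 cells, nearly all of it Klrd1 and Eomes. Of the others, Klrb1c was at 0.0308 RPKM in CD4 cells against 1.36 RPKM in CD8 cells, on at least 2 and 85 reads. Klra8 and Klra4 were listed at 0 in both, and Ncr1 was at 0.111 RPKM in CD4 cells and 0 in CD8 cells. The 6 markers of activated or memory cells summed to 58.1 RPKM in CD4 cells and 151 RPKM in CD8 cells, most of it Cd69 and Il2rb, while Cd44, on which the cells were sorted, was at 6.33 RPKM in CD4 cells against 2.60 RPKM in CD8 cells. The 4 regulatory T cell markers summed to 6.71 RPKM in CD4 cells and 14.4 RPKM in CD8 cells, with Ikzf2 and Ctla4 higher in CD8 cells. The defining Foxp3 was at 1.40 RPKM in CD4 cells against 0.161 RPKM in CD8 cells, and Il2ra at 0.421 RPKM in CD4 cells against 0.218 RPKM in CD8 cells. The part of other cells or cell states in the TRIM values was not tested, and fewer cells of a type cannot be told apart from less RNA per cell in bulk libraries.

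The TRIM members stood at closely similar levels in the 2 libraries, as genes in general did. Of the 66 members, 29 reached 1 RPKM in at least 1 library (43.9%, where 44.1% of all symbols did). In both libraries 28 members reached 1 RPKM and 20 were above 10 RPKM. The shares of all symbols that did so in both were not computed, so these 2 counts are not read as a trait of the family. The members at 1 RPKM or more had a median level of 19.1 RPKM in CD4 cells and 20.3 RPKM in CD8 cells. Over all genes at that level the medians were 14.1 RPKM in CD4 cells and 13.4 RPKM in CD8 cells. Summed over all 66, the family stood at 803 RPKM in CD4 cells and 737 RPKM in CD8 cells, and the 5 highest members made up 47.6% of the sum in CD4 cells and 47.4% in CD8 cells. The order of the levels was similar in the libraries, with a Spearman correlation of 0.97 over the 29 members, given as a description because all points share the same 2 libraries. The Pearson correlation of log2 levels was 0.97 over the members and 0.95 over all compared genes. No member was 2-fold different on the log2(RPKM + 1) scale, where 5.48% of the 10228 compared genes were. With 29 members, a count of 0 says little beside that share. Compared genes are those at 1 RPKM or more in at least 1 library.

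**Figure D1:**
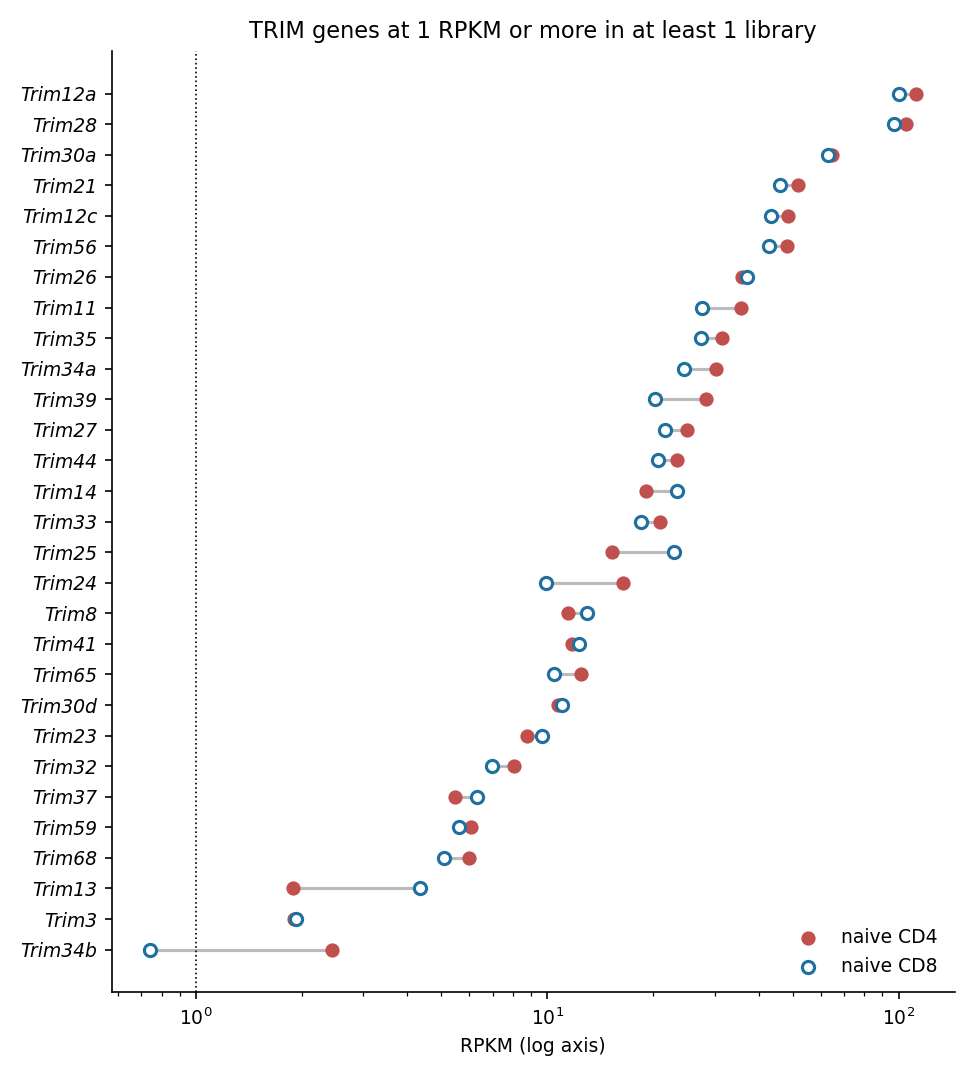
Level of the 29 TRIM genes at 1 RPKM or more in at least 1 library, in RPKM on a log axis, with filled points for the naive CD4 library and open points for the naive CD8 library, each from 1 library. The points of most genes lie close together, from Trim12a and Trim28 near 100 RPKM at the top to Trim3 and Trim34b near 2 RPKM at the bottom, and Trim34b and Trim13 have the widest gaps.

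The highest members were Trim12a and Trim28. Trim12a, a mouse relative of primate TRIM5, was at 112 RPKM in CD4 cells against 100.2 RPKM in CD8 cells, which placed it at percentile 94.7 of the compared genes by mean level. Trim28, also called KAP1 and the corepressor that KRAB zinc finger proteins bring to DNA, was at 105 RPKM in CD4 cells against 97.0 RPKM in CD8 cells. Trim30a, which in mouse limits Toll-like receptor signalling by removing the adaptors TAB2 and TAB3, was at 64.7 RPKM in CD4 cells against 63.1 RPKM in CD8 cells. Trim21, a cytosolic antibody receptor, was at 51.6 RPKM in CD4 cells against 45.9 RPKM in CD8 cells. Trim12c, which lies near Trim12a with Trim34b between them, was at 48.6 RPKM in CD4 cells against 43.2 RPKM in CD8 cells. These 5 genes differed by 1.03 to 1.12 times between the libraries. In the size of the ratio of CD4 to CD8, Trim12a was at 1.12 (95% counting interval 1.07 to 1.17), Trim28 at 1.09 (1.05 to 1.12), Trim30a at 1.03 (0.989 to 1.06), Trim21 at 1.12 (1.07 to 1.18) and Trim12c at 1.12 (1.08 to 1.17). The intervals are exact and cover counting error only. The sign for Trim30a turned to CD8 when differences were centred on the median gene.

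Of the 5 highest, 4 carry the letters of an interferon-stimulated response element (ISRE) at their start. All 7 members at 1 RPKM or more that hold it in a searched window are shown here. They are 7 of the 16 SPRY members at that level, of which Trim11, Trim35 and Trim65 had no window and were not searched. The element was searched as GAAANNGAAA on both strands in promoter windows of 300 bases, 250 before and 50 after the RefSeq start (GRCm38.p6), and windows were at hand for 22 of the 29 members at 1 RPKM or more and for 28 of the 37 others. Capitals mark the match, which is read on the strand of the gene, and overlapping matches are written as 1 stretch. The bases after the RefSeq start of Trim12a were not found in its GENCODE M21 transcripts, so its distance is uncertain. Trim30a has 2 windows with the letters, and the window shown is the one whose start was found in a transcript. In the other the match begins 2 bases after a start that was not found there.
Trim12a, chr7:104315466-104315495, minus strand, first capital 10 bases after the start: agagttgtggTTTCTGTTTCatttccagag
Trim12c, chr7:104353350-104353398, minus strand, first capital 29 bases before the start: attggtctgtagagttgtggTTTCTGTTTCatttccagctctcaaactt
Trim30a, chr7:104465200-104465249, minus strand, first capital 36 bases before the start: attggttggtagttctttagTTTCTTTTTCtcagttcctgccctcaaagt
Trim30d, chr7:104507861-104507910, minus strand, first capital 41 bases before the start: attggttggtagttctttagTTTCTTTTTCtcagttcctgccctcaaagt
Trim34a, chr7:104244457-104244486, plus strand, first capital 10 bases after the start: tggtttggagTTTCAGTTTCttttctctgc
Trim21, chr7:102565447-102565476, minus strand, first capital 13 bases after the start: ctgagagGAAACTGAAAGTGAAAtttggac
Trim26, chr17:36836966-36837021, plus strand, first capital 160 bases before the start: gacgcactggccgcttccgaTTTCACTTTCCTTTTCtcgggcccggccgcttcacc

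The letters occurred in a window of 7 of the 22 members at 1 RPKM or more (31.8%), which are the genes listed above, and in 1 of the 28 members below it (3.57%), Trim2. Among all compared genes with a window, 278 of 7309 held them (3.8%), and among all genes with a window 3.87% did. The members are not separate cases, because Trim12a and Trim12c share a run of 71 identical bases in their windows and Trim30a and Trim30d a run of 118. The gamma-activated site, searched as TTCNNNGAA, which reads the same on the other strand, was in a window of 0 of the 22 members at 1 RPKM or more, where 8.56% of all compared genes held it, and of 5 of the 28 members below (17.9%, where 9.72% of all such genes did). A match is a run of letters in this window and was not tested as a binding site.

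The members with the ISRE letters were at similar levels in the 2 cell types, with the same median difference as the members without them. The levels of the 7 with the letters ran from 10.7 to 112 RPKM in CD4 cells with a median of 48.6, and from 11.05 to 100.2 RPKM in CD8 cells with a median of 43.2. The 15 members without the letters had a median of 11.8 RPKM in CD4 cells and 9.92 RPKM in CD8 cells, and their range, up to the 105 RPKM of Trim28, overlaps that of the 7. On the log2 scale the difference (CD4 minus CD8) of the 7 had a median of 0.16 and ran from -0.04 for Trim26 to 0.29 for Trim34a. That of the 15 had a median of 0.16 and ran from -0.89 to 0.98. The counting intervals of Trim12a, Trim12c, Trim21 and Trim34a lay wholly on the CD4 side, and those of Trim26, Trim30a and Trim30d spanned 1. The Trim26 and Trim30d signs turned when each library was rescaled to the same sum.

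The same genes stand out by how few CpG dinucleotides their promoters hold. In the window richest in CpG, 6 of the 7 ISRE genes had 0 to 3 CpG and Trim26 had 19. Of the 22 members at 1 RPKM or more 7 had fewer than 5 CpG (31.8%), these 6 and Trim34b, while among all compared genes 338 of 7309 did (4.62%). The median was 17.5 CpG for these members, against 23 for all compared genes. Over all compared genes 34 had both the ISRE letters and fewer than 5 CpG, and 6 of these 34 are TRIM genes. Members below 1 RPKM in both libraries had a median of 8 CpG and 10 of 28 had fewer than 5 (35.7%, where 45% of all such genes did). The series concerns 5-hydroxymethylcytosine, a mark made at CpG, and no methylation value is used here.
For contrast, the 120 bases before the start are given for Trim12a and, from the window richest in CpG, for Trim24 and Trim39, with each CpG in capitals. The contrast depends on that choice of window. Trim24 has 2 windows, with 33 and 1 CpG, and the 3 windows of Trim39 range from 43 down to 8 CpG. All 3 genes lie toward CD4 cells, as does Trim34b with 0 CpG, while Trim37 with 41 CpG lies toward CD8 cells.
Trim12a, chr7:104315496-104315615, minus strand: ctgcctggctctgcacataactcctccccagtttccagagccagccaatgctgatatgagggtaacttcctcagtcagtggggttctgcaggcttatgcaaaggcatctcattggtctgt
Trim24, chr6:37870691-37870810, plus strand: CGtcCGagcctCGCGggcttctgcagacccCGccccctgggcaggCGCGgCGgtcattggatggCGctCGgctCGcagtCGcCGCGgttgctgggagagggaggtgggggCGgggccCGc
Trim39, chr17:36271434-36271553, minus strand: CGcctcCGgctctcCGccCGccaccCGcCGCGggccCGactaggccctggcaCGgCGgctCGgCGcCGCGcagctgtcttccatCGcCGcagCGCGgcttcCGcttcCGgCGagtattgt

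**Figure D2:**
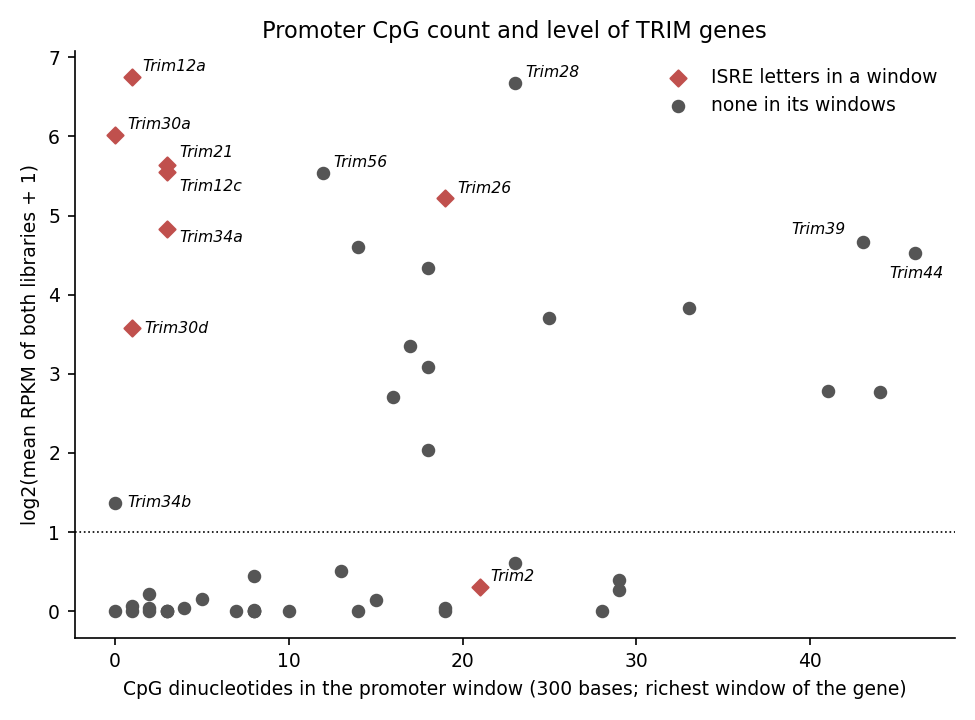
Each point is 1 of the 50 TRIM genes with a promoter window, by its CpG count per 300 bases in its richest window (horizontal) and the log2 of its mean RPKM over both libraries plus 1 (vertical), with diamonds for genes that hold the ISRE letters and a dotted line at a mean of 1 RPKM. Of the 8 diamonds, 6 lie at the upper left with 0 to 3 CpG, Trim26 lies at 19 CpG and Trim2 is the diamond below the line.

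A single stretch of chromosome 7 held the largest share of the family's summed level among its groups of neighbours. By RefSeq positions, 9 members lie there with gaps of no more than 100 kb, in the order Trim6, Trim34a, Trim12a, Trim34b, Trim12c, Trim30b, Trim30a, Trim30d and Trim30e-ps1. They summed to 269 RPKM in CD4 cells (33.5% of the family) and 243 RPKM in CD8 cells (33.0%), and 6 of them were at 1 RPKM or more. Trim34a, another SPRY member, was at 30.3 RPKM in CD4 cells against 24.6 RPKM in CD8 cells, a ratio of 1.23 (1.15 to 1.32). Trim30d was at 10.7 RPKM in CD4 cells and 11.05 RPKM in CD8 cells. The members at the ends of the stretch were at or close to 0, with Trim6 at 0.0212 RPKM in CD4 cells and 0 in CD8 cells, and Trim30e-ps1, whose name marks a pseudogene, listed at 0 in both. Trim30b, between Trim12c and Trim30a, was at 0.0146 RPKM in CD4 cells and 0.303 RPKM in CD8 cells, on 1 and 20 reads. That is a 20.7-fold higher value in CD8 cells with an interval of 3.32 to 860, below the 1 RPKM minimum in both libraries.

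Close paralogs can share reads, and the deposited notes used here do not say how such reads were treated. In the GENCODE M21 transcripts, 66.5% of the 35-base words of Trim34b also occur in Trim34a, and 46.8% of those of Trim34a occur in Trim34b. Trim12c shares 44.5% of its words with other genes, most of them with Trim5, and Trim12a shares 14.45%. Trim5 is not among the symbols of the deposited tables, and how reads from it were counted is not known. Trim30d shares 10.4% and Trim30a 9.42%. The levels of these 6 genes, and the difference of Trim34b most of all, are uncertain to that extent.

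Other neighbouring members were far apart in level while lying within the same distance of each other. On chromosome 11 Trim11 was at 35.6 RPKM in CD4 cells and 27.6 RPKM in CD8 cells beside Trim17 at 0.0242 RPKM in CD4 cells and 0.0501 RPKM in CD8 cells. Trim41 was at 11.8 RPKM in CD4 cells and 12.3 RPKM in CD8 cells beside Trim7 at 0.208 RPKM in CD4 cells and 0 in CD8 cells. Trim65 was at 12.5 RPKM in CD4 cells and 10.4 RPKM in CD8 cells beside Trim47 at 0.388 RPKM in CD4 cells and 0.230 RPKM in CD8 cells. On chromosome 17 Trim26 was at 35.9 RPKM in CD4 cells and 37.0 RPKM in CD8 cells, and of its 4 neighbours Trim10 was at 0.0361 RPKM in CD4 cells and 0.0187 RPKM in CD8 cells while Trim15, Trim31 and Trim40 were listed at 0 in both. In each of these groups the same gene was the expressed member in both cell types.

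The differences between CD4 and CD8 cells were small. The median log2 difference of the 29 members was 0.16, against 0.08 for all compared genes, and the median size of the difference without regard to sign was 0.17, against 0.25. On the log2 scale 19 members were above 0 (65.5%, where 59.5% of compared genes were) and 10 below. The counting interval lay wholly on the CD4 side for 17 members (58.6%, background 43.5%) and wholly on the CD8 side for 6 (20.7%, background 25.9%). It spanned 1 for 6 members (20.7%, background 30.7%), Trim26, Trim3, Trim30a, Trim30d, Trim41 and Trim59, whose differences were not detectable at this depth. These sides were set against a ratio of 1 and were not counted again after centring or rescaling. At 1.5-fold on the log2(RPKM + 1) scale, 2 members were higher in CD4 cells (6.9%, background 8.07%) and 1 was higher in CD8 cells (3.45%, background 7.47%), so the members' shares are not above the background. Trim34b and Trim13 were close to the 2-fold limit, at log2 differences of 0.98 and -0.89, and passed it when the deposited RPKM were compared with no pseudocount.

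**Figure D3:**
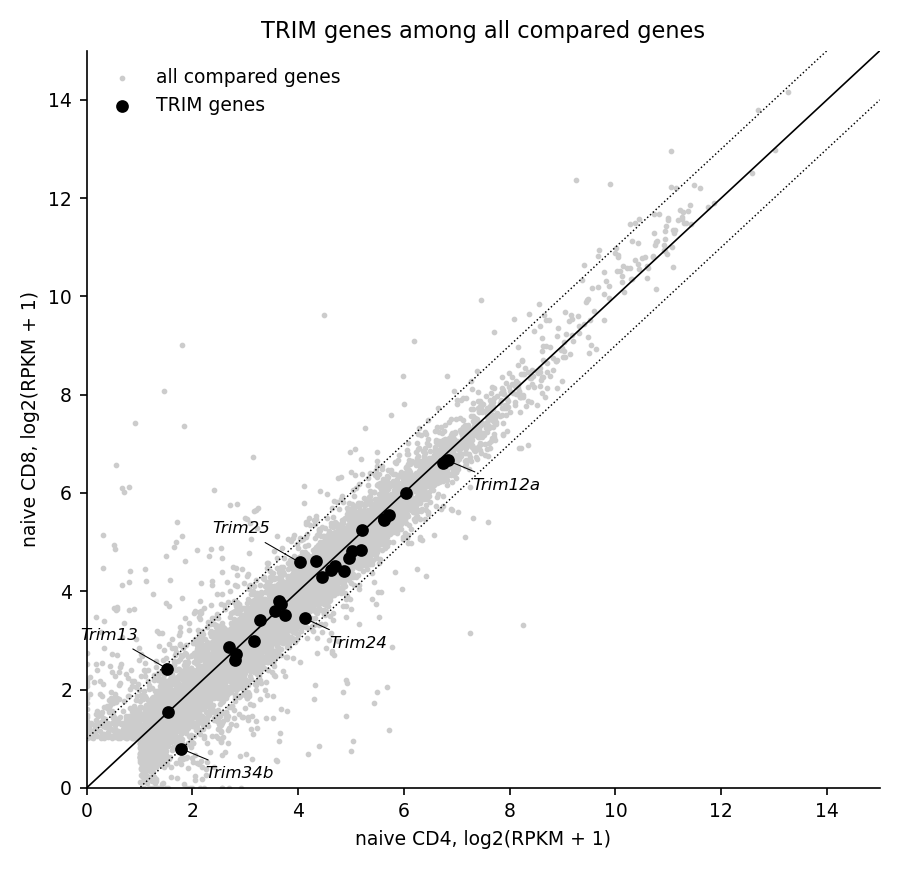
Level in the naive CD4 library (horizontal) and in the naive CD8 library (vertical) as log2(RPKM + 1), with grey points for the 10228 compared genes, black points for the 29 TRIM genes, a solid line of equality and dotted lines at a 2-fold difference. All 29 black points lie between the dotted lines, with Trim34b close to the lower and Trim13 close to the upper line.

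The TIF1 group, which has a PHD finger and a bromodomain and acts on chromatin, held the widest ratio toward CD4 cells after Trim34b. Trim24, a coregulator of nuclear receptors and a ligase for p53, was at 16.4 RPKM in CD4 cells against 9.92 RPKM in CD8 cells, on at least 817 and 475 reads. The ratio was 1.66 (1.48 to 1.86) and the log2 difference 0.68, or 0.60 after centring on the median gene. Trim33, which modulates SMAD signalling downstream of TGF-beta, was at 20.9 RPKM in CD4 cells against 18.5 RPKM in CD8 cells, a ratio of 1.13 (1.08 to 1.18), close to that of Trim28. Trim66 was at 0.0378 RPKM in CD4 cells and 0.0131 RPKM in CD8 cells. The group had 1 member with a wider gap, 2 members near equality and Trim66 far below 1 RPKM.

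Among the SPRY members outside the chromosome 7 stretch, Trim25 lay toward CD8 cells and Trim39 and Trim11 toward CD4 cells. Trim25, the ligase that acts on the RNA sensor RIG-I, was at 15.3 RPKM in CD4 cells against 23.0 RPKM in CD8 cells, a 1.501-fold higher value in CD8 cells (1.42 to 1.59) on at least 2108 and 3051 reads. Trim39, which stabilises the apoptosis protein MOAP1, was at 28.3 RPKM in CD4 cells against 20.3 RPKM in CD8 cells, a ratio of 1.40 (1.31 to 1.49). Trim11 had a ratio of 1.29 (1.21 to 1.38). Both directions held under centring and under rescaling to the same sum, as did that of Trim25.

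The remaining SPRY members leaned to CD4 cells or were level. Trim65, a ligase for the RNA sensor MDA5, had a ratio of 1.20 (1.09 to 1.32). Trim35 was at 31.4 RPKM in CD4 cells against 27.3 RPKM in CD8 cells. Trim27, which restrains potassium channel activation in CD4 T cells by acting on a class II phosphatidylinositol 3-kinase, was at 25.02 RPKM in CD4 cells against 21.7 RPKM in CD8 cells, a ratio of 1.15 (1.06 to 1.25). Trim68 was at 6.01 RPKM in CD4 cells against 5.09 RPKM in CD8 cells. Trim41 had a ratio of 0.960 and Trim26 of 0.971, with intervals that span 1. In all, the log2 difference was positive for 12 of the 16 SPRY members at 1 RPKM or more and negative for 4, where 59.5% of compared genes were positive, and Trim26, Trim41 and Trim30d, which are 3 of the 4, changed sign under rescaling to the same sum.

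**Figure D4:**
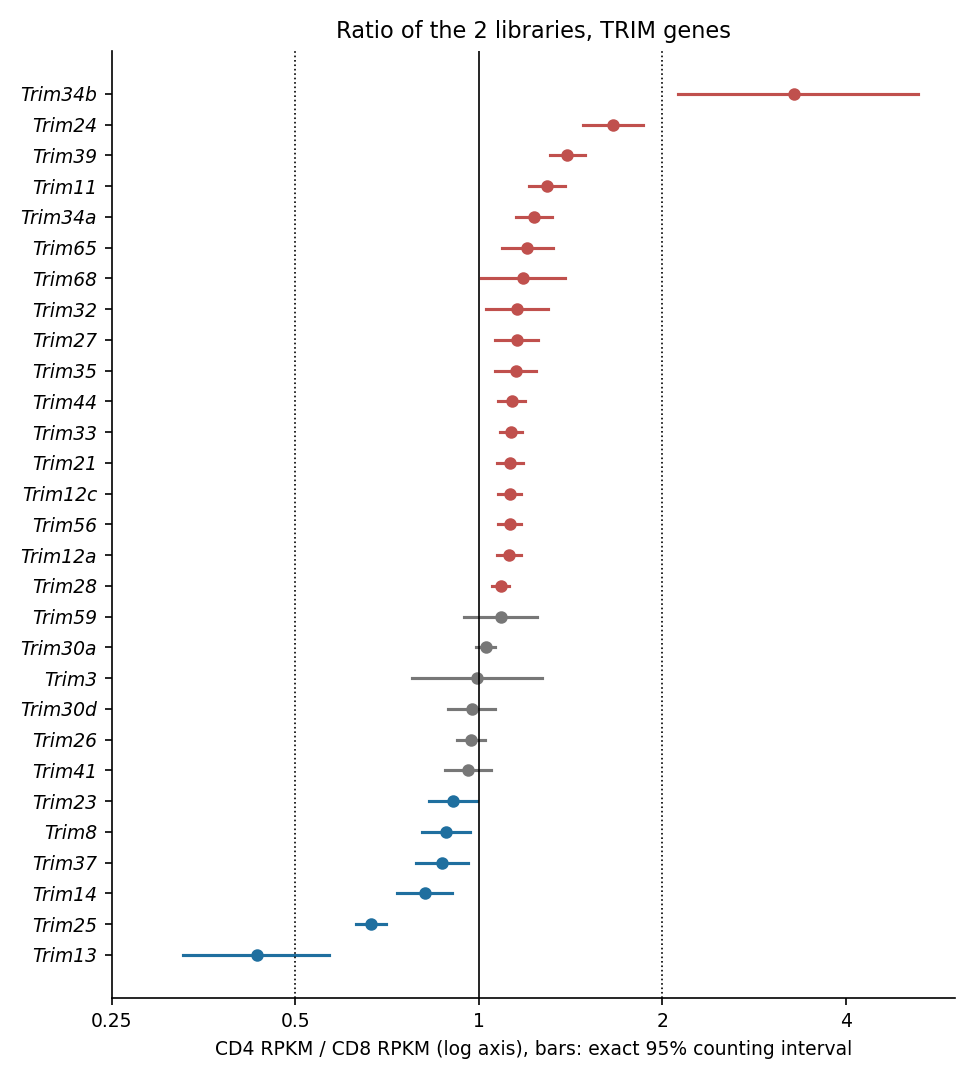
Ratio of CD4 RPKM to CD8 RPKM for the 29 TRIM genes on a log axis, with bars for the exact 95% counting interval, a solid line at 1 and dotted lines at 0.5 and 2. Red marks intervals wholly above 1 (17 genes, Trim34b and Trim24 at the top), blue intervals wholly below 1 (6 genes, Trim13 and Trim25 at the bottom) and grey intervals that span 1 (6 genes).

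Trim34b and Trim13, the members with the widest gaps, were both low. Trim34b was at 2.43 RPKM in CD4 cells against 0.741 RPKM in CD8 cells, on 92 and 27 reads, a ratio of 3.29 (2.12 to 5.25), and it is the gene that shares most of its words with Trim34a. Trim13, a ligase anchored in the endoplasmic reticulum membrane that takes part in protein degradation there, was at 1.88 RPKM in CD4 cells against 4.36 RPKM in CD8 cells, on 79 and 176 reads, a 2.31-fold higher value in CD8 cells (1.76 to 3.05). Trim13 shares 25.3% of its words with the gene Gm9359. The other transmembrane member, Trim59, was at 6.08 RPKM in CD4 cells against 5.60 RPKM in CD8 cells, and its interval of the ratio, 0.945 to 1.25, spans 1.

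The members of the other domain classes went both ways. Trim56, which acts in the cGAS and STING pathway of DNA sensing, was at 48.1 RPKM in CD4 cells against 42.8 RPKM in CD8 cells. Trim14, an adaptor at mitochondria in RNA sensing that keeps a SPRY domain but lacks the RING, was at 19.1 RPKM in CD4 cells against 23.4 RPKM in CD8 cells, a 1.23-fold higher value in CD8 cells (1.11 to 1.36). Trim44, a member without a RING that stabilises its partners, was at 23.5 RPKM in CD4 cells against 20.7 RPKM in CD8 cells. Trim8 was at 11.5 RPKM in CD4 cells against 13.0 RPKM in CD8 cells. Trim23, which carries an ARF-like GTPase domain and acts on NEMO, was at 8.74 RPKM in CD4 cells against 9.64 RPKM in CD8 cells. Trim37, the MATH-domain member, was at 5.48 RPKM in CD4 cells against 6.30 RPKM in CD8 cells. The Trim8, Trim23 and Trim37 differences, 1.10 to 1.15 times toward CD8 cells, turned in sign when each library was rescaled to the same sum, and that of Trim14 did not. Of the NHL-repeat members, Trim32 was at 8.02 RPKM in CD4 cells against 6.94 RPKM in CD8 cells and Trim3, known from neurons, at 1.91 RPKM in CD4 cells and 1.92 RPKM in CD8 cells.

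The 37 other members were below 1 RPKM in both libraries. Of these, 15 were above 0 in both, 3 in CD4 only, 1 in CD8 only, and 18 were listed at 0 in both. The muscle RING finger genes Trim54, Trim55 and Trim63 were listed at 0 in both, as was Trim42. The 4 members with a COS box, fibronectin repeat and SPRY domain, known for binding microtubules, summed to 1.37 RPKM in CD4 cells and 0.968 RPKM in CD8 cells, most of it Trim36 at 0.919 RPKM in CD4 cells and 0.528 RPKM in CD8 cells. The members above 0 in CD4 only were Trim7, Trim16 and Trim6, on at least 7, 6 and 2 reads, and Trim50 had at least 1 read in CD8 only. Those listed at 0 in both include Trim38, an interferon-induced member that tunes nucleic acid sensing, and Trim71, a germline and stem cell member. A listed 0 is not read as absence, because the ribosomal protein gene Rpl26, chosen after its value was seen, is also listed at 0 in both libraries.

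Of the genes that work with TRIM proteins, the Trim28 partners and the E1 and E2 enzymes had median differences near 0. The TGF-beta and SMAD genes lay toward CD4 cells. Of the relatives that carry another symbol, Pml, the scaffold of PML nuclear bodies, was at 13.6 RPKM in CD4 cells and 13.4 RPKM in CD8 cells, and Mid1, a microtubule-bound ligase, at 2.68 RPKM in CD4 cells and 2.19 RPKM in CD8 cells. Of 13 Trim28 corepressor partners 0 differed 2-fold, where 5.48% of compared genes did, so a count of 0 in so short a list says little. Their median log2 difference was 0.03, which lay below 0 (-0.05) after centring. In this list Chd3, a NuRD remodeler, was at 234 RPKM in CD4 cells against 146 RPKM in CD8 cells and Hdac1 at 42.4 RPKM in CD4 cells against 64.1 RPKM in CD8 cells. Of 13 E1 and E2 enzymes 0 differed 2-fold, against the same share of 5.48%. On the log2 scale 5 were above 0 and 8 below, with a median of -0.005. The highest were Ube2d3, an E2 that many RING ligases use, at 110 RPKM in CD4 cells against 122 RPKM in CD8 cells, and the E1 gene Uba1 at 102 RPKM in CD4 cells against 90.5 RPKM in CD8 cells. The 8 TGF-beta and SMAD genes were all above 0 (59.5% of compared genes were), with a median of 0.26 against 0.08 for all compared genes and of 0.18 after centring. None was 2-fold different, with the receptor gene Tgfbr2 at 184 RPKM in CD4 cells against 126 RPKM in CD8 cells, and Smad3 at 24.5 RPKM in CD4 cells against 14.2 RPKM in CD8 cells.

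The nucleic acid sensing genes that TRIM ligases act on lay somewhat toward CD4 cells, while the interferon receptor genes went both ways and the median of the interferon-stimulated genes was near that of all genes. Of 17 cytosolic nucleic acid sensing genes 15 had a positive log2 difference, where 59.5% of compared genes did, and none differed 2-fold, with a median of 0.24 against 0.08 for all compared genes. Ddx58, which encodes RIG-I, was at 51.8 RPKM in CD4 cells against 30.9 RPKM in CD8 cells, a ratio of 1.67 (1.61 to 1.75), and its adaptor Mavs at 7.62 RPKM in CD4 cells against 4.70 RPKM in CD8 cells, 1.62 (1.42 to 1.85). The RIG-I ligase Trim25 lay toward CD8 cells where its target Ddx58 lay toward CD4 cells. Tmem173, the STING gene, was at 94.8 RPKM in CD4 cells against 72.6 RPKM in CD8 cells, and Ikbke at 181 RPKM in CD4 cells against 148 RPKM in CD8 cells. Of 7 interferon receptor and ISGF3 genes 0 differed 2-fold, and 5 were above 0 and 2 below. Irf9 was at 99.5 RPKM in CD4 cells against 74.0 RPKM in CD8 cells, while the kinase gene Jak1 was at 198 RPKM in CD4 cells against 260 RPKM in CD8 cells and the receptor gene Ifnar2 at 22.9 RPKM in CD4 cells against 31.5 RPKM in CD8 cells. Of 26 interferon-stimulated genes at 1 RPKM or more, 16 were above 0 and 10 below, with a median of 0.09. In this list Ifit2 alone was 2-fold higher in CD4 cells, at 34.6 RPKM in CD4 cells against 16.6 RPKM in CD8 cells, and Mx1 alone was 2-fold higher in CD8 cells, at 5.14 RPKM in CD4 cells against 11.4 RPKM in CD8 cells. Over all compared genes 2.41% were 2-fold higher in CD4 cells and 3.07% in CD8 cells.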

How the data were processed

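The authors deposited RPKM per gene symbol for 1 naive CD4 and 1 naive CD8 library, made with a SOLiD low-input protocol per the labels. Per the submitters' processing notes, TopHat and HTSeq were used with the mm9 genome. Versions and annotation were not stated. Symbols on several rows had identical values and were counted once. Library totals and the smallest whole reads per gene were recovered from the RPKM: all 12735 genes above 0 in both libraries gave whole reads within the printed digits, and 4 of 1000 did with the CD8 total moved by 1000 reads. True reads may be multiples, so intervals can be too wide. Differences are log2((CD4 RPKM + 1)/(CD8 RPKM + 1)), and ratios are of deposited RPKM with exact (Clopper-Pearson) 95% intervals from SciPy 1.17.1. The scripts were tested on simulated data. Members at 1 RPKM or more were named. Members, gene lists and motifs were chosen with earlier results of these data known, and the promoter windows, the word length of 35 bases and the 5 CpG limit were set after values were seen. Domain classes are background knowledge. Coordinates belong to promoter sequences credited to RefSeq (GRCm38.p6), a later build than mm9, and were not converted. Alternatives were pseudocounts of 0.1 and 5 RPKM, filters, centring, rescaling each library to a sum of 1000000 and a 1.5-fold limit. Comparing RPKM with no pseudocount was added after seeing the data.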

Additional observations from a re-analysis of the deposited data

How the results depend on the processing

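No member passed the 2-fold limit toward CD4 (0) or toward CD8 (0), and this held with a pseudocount of 5 RPKM, with no filter, with a filter at 5 RPKM and with centring. The counts became 1 (Trim34b) and 1 (Trim13) with a pseudocount of 0.1 RPKM and, as an alternative chosen after seeing the data, 1 and 1 with no pseudocount. After rescaling both libraries to sums of 1000000 they became 1 and 0, and with a 1.5-fold limit 2 and 1. That rescaling moved the median of all compared genes by 0.21 on the log2 scale and the median of the TRIM members to 0.38, while the other settings gave 0.06 to 0.17. It turned the sign of 7 of the 29 members, Trim26, Trim8, Trim41, Trim30d, Trim23, Trim37 and Trim3. Centring turned that of Trim30a. The number of members at 1 RPKM or more was 31 at a limit of 0.5 RPKM, 26 at 5 RPKM and 28 when both libraries had to pass. No paired analysis was possible because each cell type has 1 library. Depth limits mainly Trim34b, Trim13 and Trim3, which had from 27 to 176 reads.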

Other observations

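Several TRIM proteins act in selective autophagy, and the 14 autophagy genes listed went both ways. On the log2 scale 7 were above 0 (59.5% of compared genes were) and 7 below, with a median of 0.03. Of the 14, 0 differed 2-fold, where 5.48% of compared genes did, and so short a list cannot be told from that share. The cargo receptor gene Sqstm1 was the highest, at 149 RPKM in CD4 cells against 128 RPKM in CD8 cells. Ambra1, a scaffold of autophagy initiation, was at 28.5 RPKM in CD4 cells against 16.3 RPKM in CD8 cells, a ratio of 1.75 (1.66 to 1.85). The LC3 genes lay the other way. Map1lc3b was at 63.7 RPKM in CD4 cells against 83.3 RPKM in CD8 cells, and Map1lc3a at 3.34 RPKM in CD4 cells against 7.05 RPKM in CD8 cells, a 2.11-fold higher value in CD8 cells (1.62 to 2.77). With the pseudocount the Map1lc3a difference stayed under the 2-fold limit.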
